A study of Drosophila melanogaster with 2 samples.

Results

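The regions described here were binding peaks of CkIIalpha-i1 that lay in introns, away from promoters, in Drosophila melanogaster embryos. They numbered 309 of the 923 peaks on the 6 main chromosome arms (33.5%, 95% Wilson interval 30.5 to 36.6) and of 944 peaks in all in the authors' pooled list. A member had its summit inside a gene of the Ensembl annotation other than a pseudogene or transposable element, more than 500 bp from every annotated transcription start site (TSS), and in no annotated exon. The rule used position alone within the list, but every peak of the list had already passed the IDR threshold, which ranks peaks by signal. Whole embryos of 0 to 18 hours, from the strain CkIIalpha-i1-GFP, whose inserted transgene makes CkIIα-i1 fused to eGFP, formed the single group of 2 biological replicates. An antibody against GFP was used for the immunoprecipitation, so the peaks mark the tagged protein in a mixture of all embryonic cell types and ages. The design has no second condition, and neither untagged embryos nor input DNA were analysed here. All intervals below cover counting error only, and neighbouring regions of the same embryos are not replicates.

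CkIIalpha-i1 takes its name from an interaction with the alpha subunit of casein kinase II, a protein kinase that phosphorylates many nuclear and cytoplasmic proteins. Introns of fly genes, above all long first introns, often hold enhancers, the DNA elements through which transcription factors control a gene from a distance. A chromatin immunoprecipitation peak in an intron shows that the protein was near that DNA, and does not show which gene, if any, it controls.

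The authors' peak caller gave each candidate peak a signal value, whose scale is not stated, and the irreproducible discovery rate (IDR) measured how well a peak's rank repeated between 2 input lists. Candidates with a global IDR of 0.01 or less could enter the thresholded list, and the candidates above it are called failed candidates. Of 144401 pooled candidates on the main arms, 0.639% were thresholded in all classes of position together. Of the 53767 intronic candidates, 309 were thresholded (0.575%, interval 0.514 to 0.642), against 2.23% of the promoter candidates, 0.306% of the intergenic ones and 0.119% of those in exons. Introns therefore gave candidates to the list at about the rate of the genome as a whole and at a lower rate than promoters, which supplied 467 peaks. The 2 members nearest to the TSS limit lay 508 bp (CG42671, signal 95.5) and 521 bp (CG8128, signal 67.7) from a TSS. Just outside it were peaks in Moe at 494 bp (signal 51.9) and in ph-p, a Polycomb gene, at 492 bp (signal 485, above every member). At the IDR limit the members nearest to it lay in psq and Antp, each with a −log10 global IDR of 2.00, and the nearest failed intronic candidates in Pif1A and Pif1B and in Pli.

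The sequences of 6 of the 8 strongest members are shown for the features described further below, base composition around the summit and the short word CAGTG, which 4 of the 6 held. Each runs from 100 bp before to 100 bp after the summit on the dm6 assembly, was read from the RefSeq Release 6 genome, and has CAGTG, or its reverse complement CACTG, in capitals. Of the 6, CG32486 and CG3726 held neither form in this window.
CG11050 (chr2L:6612639-6612839, plus strand): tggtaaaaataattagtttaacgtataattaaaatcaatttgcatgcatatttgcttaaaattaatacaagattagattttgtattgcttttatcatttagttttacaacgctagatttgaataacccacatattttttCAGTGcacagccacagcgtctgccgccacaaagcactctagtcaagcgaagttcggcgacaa
CG32772 (chrX:4910260-4910460, plus strand): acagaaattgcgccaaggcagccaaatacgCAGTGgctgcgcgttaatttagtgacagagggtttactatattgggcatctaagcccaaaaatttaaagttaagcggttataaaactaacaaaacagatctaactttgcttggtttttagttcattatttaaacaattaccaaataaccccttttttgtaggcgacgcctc
CG32486 (chr3L:3060715-3060915, plus strand): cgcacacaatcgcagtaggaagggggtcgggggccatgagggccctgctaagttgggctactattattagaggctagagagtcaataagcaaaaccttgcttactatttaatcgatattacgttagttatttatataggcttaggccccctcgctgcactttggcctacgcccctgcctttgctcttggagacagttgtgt
Trl (chr3L:14759392-14759592, plus strand): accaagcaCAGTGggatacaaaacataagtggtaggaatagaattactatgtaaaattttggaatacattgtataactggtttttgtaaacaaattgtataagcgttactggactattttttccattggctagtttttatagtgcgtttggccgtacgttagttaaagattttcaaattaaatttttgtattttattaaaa
CG3726 (chrX:5918819-5919019, plus strand): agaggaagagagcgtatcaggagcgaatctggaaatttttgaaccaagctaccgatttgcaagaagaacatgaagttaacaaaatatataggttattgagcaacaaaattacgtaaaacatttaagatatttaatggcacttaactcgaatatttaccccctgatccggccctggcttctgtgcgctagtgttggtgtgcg
NFAT (chrX:13640395-13640595, plus strand): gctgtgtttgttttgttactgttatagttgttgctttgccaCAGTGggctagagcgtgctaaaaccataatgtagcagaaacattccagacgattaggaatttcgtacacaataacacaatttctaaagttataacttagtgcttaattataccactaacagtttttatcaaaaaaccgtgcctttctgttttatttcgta

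In 11 strong members that held the longer word ACAGTGG within 100 bp of the summit, the bases around it were as follows. The word is in capitals, each site is written 5′ to 3′ on the strand that carries it, and in all 11 the word read toward the summit.
Trl (chr3L:14759387-14759417, plus strand): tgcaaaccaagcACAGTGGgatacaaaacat
NFAT (chrX:13640423-13640453, plus strand): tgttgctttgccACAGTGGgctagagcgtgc
norpA (chrX:4325052-4325082, minus strand): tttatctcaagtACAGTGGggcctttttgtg
CHES-1-like (chrX:7706890-7706920, plus strand): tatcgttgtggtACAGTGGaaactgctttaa
Csk (chr3R:11649698-11649728, minus strand): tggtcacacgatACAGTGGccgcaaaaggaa
MYPT-75D (chr3L:18640756-18640786, minus strand): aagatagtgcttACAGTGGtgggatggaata
CG32264 (chr3L:3785297-3785327, minus strand): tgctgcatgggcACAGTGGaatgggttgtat
Hr4 (chrX:1963850-1963880, plus strand): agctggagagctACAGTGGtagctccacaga
for (chr2L:3655712-3655742, plus strand): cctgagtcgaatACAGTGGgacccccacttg
CG31635 (chr2L:6647288-6647318, minus strand): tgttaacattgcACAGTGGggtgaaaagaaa
CG6966 (chr3R:15087699-15087729, plus strand): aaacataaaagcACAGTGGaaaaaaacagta

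The strongest member lay in CG11050, an unnamed protein-coding gene on 2L. Its signal value was 476.7 in the pooled list, and the candidates at the same place had 244.6 in replicate 1 and 224.4 in replicate 2. Unlike most members it sat in a short second intron, of 140 bp, with its summit 42 bp from an exon. Several of the next members lay in genes of DNA-binding proteins. Adf1, which encodes a transcription factor first described at the Adh promoter, had 381.1 in the pooled list, 133.9 in replicate 1 and 259.4 in replicate 2. Trl, which encodes GAGA factor, had 302.5, 112.1 and 187.9 in the same order. The pair HmgD and HmgZ, which encode DNA-bending HMG-box proteins and whose annotated bodies overlap there, had 298.4, 136.3 and 159.8. In all 3 places replicate 2 gave the higher value.

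The gene of NFAT, the fly member of a transcription factor family that calcineurin controls in vertebrates, had 244.7 in the pooled list, 83.4 in replicate 1 and 153.0 in replicate 2. CHES-1-like, which encodes a forkhead protein, had 208.6, 111.9 and 98.5. Genes of signalling enzymes were also among the 20 strongest. These were norpA, the phospholipase C of phototransduction (230.7, 123.3 and 98.0), Tlk, the Tousled-like kinase (220.3, 106.9 and 108.5), Raf, a kinase of the MAP kinase cascade (215.8, 106.8 and 111.5), and Csk, a kinase that acts on Src kinases (186.6, 93.4 and 89.5). Their replicate values lay closer together than those of Adf1 or Trl.

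The unnamed genes CG32772, CG32486, CG3726, CG9837, CG12769 and CG9663 had pooled signal values between 357.5 and 184.5. Hyls1 and chif, where chif encodes the regulatory partner of the Cdc7 kinase, shared a member of 184.9, and Reph closed the 20 at 178.4. As a ratio the replicates differed most among these 20 at SCaMC, a mitochondrial carrier, with 157.0 in replicate 1 and 52.9 in replicate 2 for a pooled value of 208.2. All 20 overlapped a thresholded peak in each replicate's own list, 17 lay in a first intron, and 8 were on the X.

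**Figure D1:**
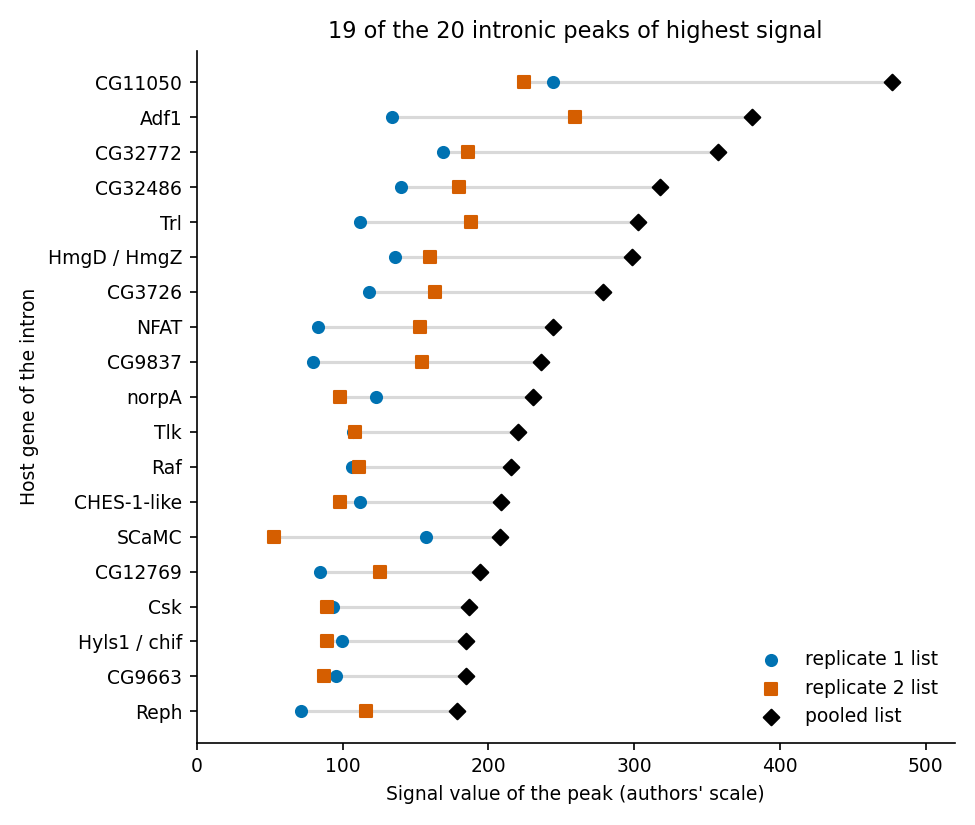
Signal values of 19 of the 20 intronic peaks with the highest pooled value, by host gene, in the pooled list (diamonds) and in replicate 1 (circles) and replicate 2 (squares), on the authors' linear scale; grey lines join the values of a peak. Pooled values ran from 178.4 (Reph) to 476.7 (CG11050), and SCaMC was the peak where replicate 1 (157.0) stood farthest above replicate 2 (52.9).

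Across all members the median signal value was 75.7 (quartiles 63.2 and 101.3), against 84.1 (67.5 and 122) in promoter peaks and 72.4 in intergenic peaks of the same list. Failed intronic candidates had a median of 17.2 and reached 78.4, and 1 of 53445 lay above the members' median. The lowest values belonged to neighbours of another member. Within Snoo, Sdc and CG4829, 3 pairs of members overlapped with summits at most 212 bp apart, and the weaker of each pair had 9.84, 3.45 and 19.1, the only members under 20. In each of these pairs both members overlapped the same candidates in the replicates, so the 309 members held 306 places that did not overlap.

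Repeatability between the replicates followed the signal. In replicate 1's own thresholded list 108 members (35.0%) had an overlapping peak, where 40.7% of all pooled peaks did. In replicate 2's list 147 members (47.6%) had one, where the share of all pooled peaks was 53.6%. In both lists 74 members had one (23.9%, interval 19.5 to 29.0), against 28.2% of all pooled peaks and 33.0% of promoter peaks (28.9 to 37.4). A further 34 were in replicate 1 alone (11.0%, against 12.6% of all pooled peaks) and 73 in replicate 2 alone (23.6% against 25.5%). In neither list were 128 (41.4%, 36.1 to 47.0), against 33.8% of all pooled peaks and 26.6% of promoter peaks (22.8 to 30.7). Of the 100 strongest members 70 were in both lists, of the next 100 only 4, and of the last 109, with values of 67.6 or less, 0. The pooled values and the replicate lists were made from the same 2 libraries, so this order is not independent evidence. The conservative list, in which the authors compared the replicates directly, held an overlapping peak for 194 members (62.8%). The share was 66.6% of all pooled peaks and 73.2% of promoter peaks. In the pooled list and no other were 74 members (23.9%), against 18.7% of all pooled peaks and 12.6% of promoter peaks.

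Members absent from a thresholded list were mostly still present in the longer ranked list. Some candidate overlapped 308 members in replicate 1, 288 in replicate 2 and 287 in both. The ranked lists held 110309 and 106949 candidates on the main arms, with signal values down to 2.00. No such share is given here for other peaks, so overlap alone does not show a replicate signal. Over these 287 the replicate 1 values ranged from 12.8 to 245 and the replicate 2 values from 10.8 to 259. Replicate 2 was the higher at 174, with a median log2 ratio of replicate 1 over replicate 2 of −0.22 (quartiles −0.63 and 0.29), if both lists were scored alike. Pearson's r across these peaks was 0.72 and Spearman's rho 0.36, as a description: the peaks share 2 libraries and were all chosen for passing in the pooled data.

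**Figure D2:**
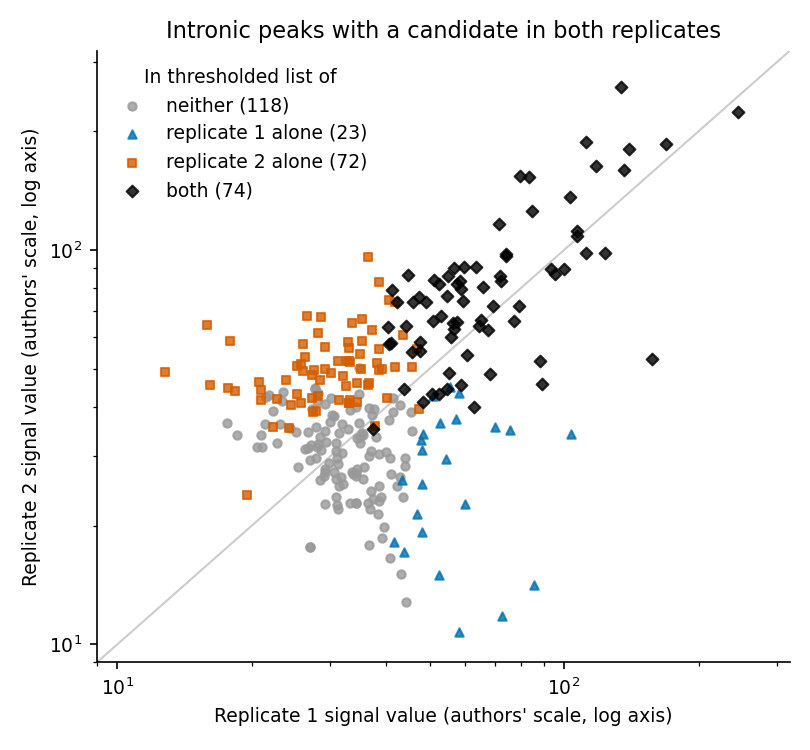
Signal value in replicate 1 (x, log axis) and replicate 2 (y, log axis) of the 287 intronic peaks with a candidate in both, marked by the replicate lists that hold them; the grey line marks equal values. The 74 peaks in both lists fill the upper right, and the 118 shown in neither sit together at low values in both replicates.

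Most members lay in first introns, and members lay nearer to a TSS than other intronic candidates. In at least one transcript of the host gene the intron was the first for 225 members (72.8%, interval 67.6 to 77.5), against 45.9% of failed intronic candidates and 43.4% of points set every 1000 bp along introns under the same rule. Counting the longest transcript alone, 57.2% of 271 members were in its first intron and 33.3% of failed candidates. A second intron was the earliest for 57 members and a later one for 27. The median distance to the nearest TSS was 2161 bp (quartiles 1049 and 5244, range 508 to 227818), against 5316 bp for failed candidates. For 239 members (77.3%) that TSS belonged to the host gene. The longest intron that held the member had a median length of 12297 bp, against 16867 bp for failed candidates. The nearest end of an intron that held the summit was a median of 1589 bp away. Exons of other transcripts or genes can lie nearer than that. Only 1 member (0.324%) lay in an annotated transposable element, against 1.20% of failed candidates and 7.13% of intron points.

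The share of intronic candidates that were thresholded fell with every step away from a TSS. It was 1.67% (75 members) at 501 to 1000 bp, 0.984% (73) at 1001 to 2000 bp, 0.528% (74) at 2001 to 5000 bp, 0.402% (47) at 5001 to 10000 bp and 0.248% (40) beyond 10000 bp. First introns were commoner among members than among failed candidates in each of these bands, with 85.3% against 68.9% in the nearest and 47.5% against 26.7% in the farthest. Distance from a TSS and first introns therefore went together, and the first-intron difference was also present within each band. Median signal values fell less, from 86.0 in the nearest band to 70.2 in the farthest.

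**Figure D3:**
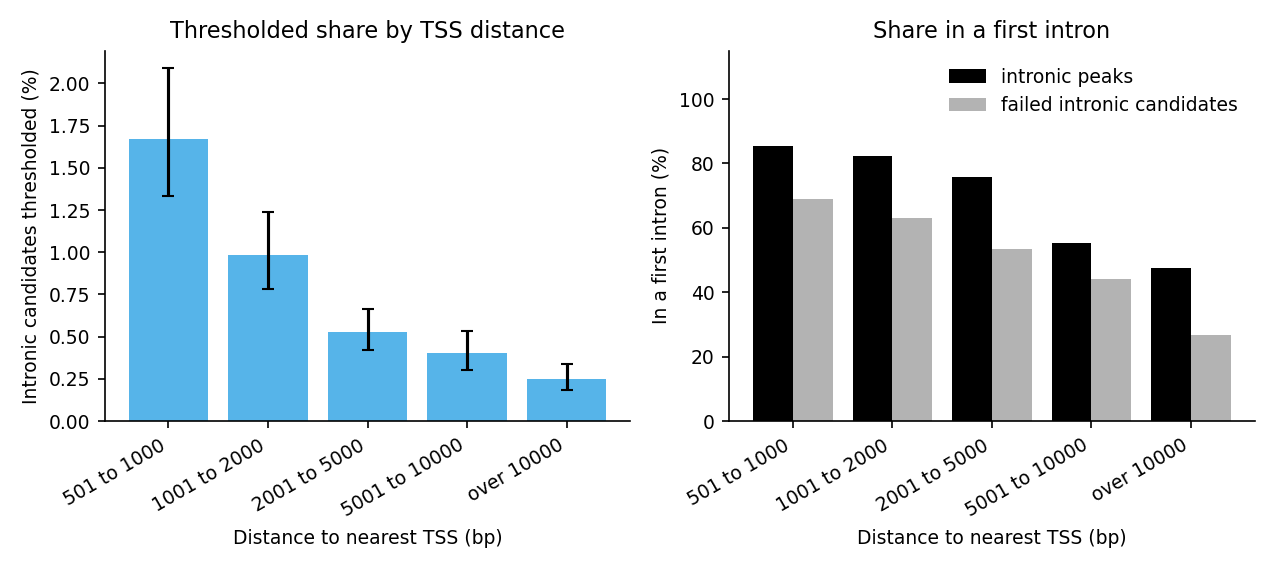
Left, share of intronic candidates that were thresholded (y, %) by distance of the summit to the nearest TSS (x, bp), with 95% Wilson intervals; right, share in a first intron (y, %) for intronic peaks (black) and failed intronic candidates (grey) in the same bands. The thresholded share fell from 1.67% to 0.248%, and the black bar was the higher of the pair in all 5 bands.

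The X chromosome held 86 members (27.8%, interval 23.1 to 33.1), more than its 20.1% of failed intronic candidates, 19.3% of intron points or 19.5% of promoter peaks (16.1 to 23.3). Of X intronic candidates 0.796% (0.645 to 0.981) were thresholded, against 0.519% (0.455 to 0.592) of autosomal ones. The labels give no sex for the embryos. Arms 3R, 2R, 2L and 3L held 66, 55, 54 and 48 members, and chromosome 4, with only 20 failed intronic candidates, held 0. A count of 0 allows up to 0.971% of the members, taken as 3 counts of 309. Members on the X had a median signal close to that of the rest (75.8 against 75.7) and a like share in both replicate lists (23.3% against 24.2%). More of them held ACAGTGG within 100 bp, at 23 of 86 (26.7%) against 30 of 223 (13.5%). No share of this word in failed intronic candidates of the X alone is given here.

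The 309 members lay in 282 genes, 274 of them protein-coding, out of 4360 genes with an intronic candidate (6.47%). For 20 members more than 1 gene held the summit, and each such gene was counted as a host. Host genes were long, with a median of 22058 bp against 8124 bp for the hosts of failed candidates. Split by length into 4 equal groups, 1.10%, 3.03%, 7.61% and 14.1% of genes with an intronic candidate hosted a member, from the shortest group to the longest. Both comparisons count each gene once, however many candidates it held, and no share per candidate was computed by gene length. A promoter peak stood at a TSS of 32 host genes as well (11.3%, interval 8.15 to 15.6), against 5.49% of the 4078 other genes. Any annotated TSS of a gene counted, and these shares were not split by gene length or number of TSSs.

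There were 245 hosts with 1 member, 30 with 2 and 7 with 3 or more. Tlk had 4 members, with pooled signals of 220.3, 83.4, 77.7 and 74.0 over 32206 bp. CHES-1-like had 4 (208.6, 124.7, 72.5 and 57.3) within 8578 bp and a promoter peak too. The gene sbb, the Drosophila scribbler gene of a nuclear corepressor, had 4 (138.9, 113.2, 113.0 and 79.4) over 5108 bp and also a promoter peak. One of these 4, at 138.9, had 103.6 in replicate 1 and 34.1 in replicate 2. Hr4, a nuclear receptor of the ecdysone response, had 4 (150.4, 141.6, 70.0 and 53.2) over 36543 bp, and its upper pair was in both replicate lists and its lower pair in neither. Snoo, a Ski/Sno family gene, had 4 over 48512 bp, among them the overlapping pair. Raf had 3 (215.8, 130.8 and 59.4) over 4570 bp, and the non-coding gene lncRNA:CR44357 had 3 (126.5, 74.9 and 64.9) over 94134 bp. Of those in lncRNA:CR44357, the peak at 126.5 also lay in CG1677 and Dok, and the peak at 74.9 also in CG1677. Of these 7 hosts, all but Snoo and sbb are on the X.

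Genes of signalling pathways made up 13 of the 282 hosts (4.61%, interval 2.71 to 7.73), against 1.64% of the 4078 other genes. The strongest were in aos, a secreted inhibitor of the EGF receptor (164.1), InR, the insulin receptor (138.2), Dif, an NF-kappaB factor of immunity (110.4), and drk, an adaptor of receptor tyrosine kinases (108.1). The aos peak had 63.7 in replicate 1 and 90.8 in replicate 2, and InR 89.4 and 45.6. Of the insulator and promoter factors with an intronic candidate, 3 of 10 were hosts (1.06% of hosts against 0.172% of the other genes), Adf1, Trl and psq, and psq at 61.0 was in neither replicate list.

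Developmental transcription factors were 12 of the hosts (4.26%, 2.45 to 7.29), against 2.33% of the other genes. Beside Hr4 they included Hr3 of the ecdysone response (139.7), zfh1 of the mesoderm (102.6) and Mef2 of muscle (91.8). All 12 were among the longest of the 4 groups of genes by length, where 18.2% of the listed factors and 14.1% of all genes were hosts. Adhesion and axon guidance genes gave 14 hosts (4.96% against 3.04%). Among them were trol, the perlecan gene (108.6), ed (102.7), kirre (99.9) and Fas3 (87.3), all of cell surface or matrix proteins. The kirre summit also lay inside CG32795. Ion channel, receptor and synapse genes gave 7 (2.48% against 2.06%), with norpA, the potassium channel genes KCNQ (152.2) and Irk1 (78.6), and the phosphodiesterase dnc (66.4). For the transcription factors the interval began just above the share of the other genes, and for the last 2 lists it held that share.

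RNA-binding protein genes gave 6 hosts (2.13% against 0.760%), with mub (127.9), brat (108.9), ps (105.5) and pum (84.0). Muscle and cytoskeleton genes gave 6 as well (2.13% against 1.32%), with Moe, the moesin gene (146.1), Dhc64C, a dynein heavy chain (141.0), pico (121.7) and tsr, cofilin (98.6). Of 17 Polycomb and Trithorax genes with an intronic candidate Trl and Psc (93.0) were hosts (0.709% of hosts against 0.368% of the other genes). Of 19 translation factor genes eIF4EHP (90.004) and eIF5B (74.7) were (0.709% against 0.417%). The interval held the share of the other genes for the muscle list (0.979 to 4.56) and for the Polycomb and translation lists (each 0.195 to 2.55). For the RNA-binding list (0.979 to 4.56) it began above that share. No member lay in an intron of a casein kinase II gene, a ribosomal protein gene or a mitochondrial ribosomal protein gene, of which 1, 6 and 5 had an intronic candidate. Over all 12 lists together 63 hosts were listed (22.3%), against 12.3% of the other genes. The lists differ in gene length, and its part in these shares was tested for no list beyond the length groups given for the transcription factors.

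In base composition around the summit the members resembled the promoter peaks and differed from the other intronic candidates. The sequence within 100 bp of the summit had a median of 36.8% G+C (quartiles 33.3 and 41.8), against 35.8% in promoter peaks, 44.3% in failed intronic candidates and 40.3% at intron points. The A/T-rich stretch was narrow: within 50 bp of the summit the median was 33.7%, and within 250 bp it was 41.9%. By 25 bp bins the mean fell from 46.3% at 125 to 150 bp before the summit to 34.2% just after it, and rose to 45.2% again at 125 to 150 bp. Failed candidates had no such dip, with 44.3% just before the summit.

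**Figure D4:**
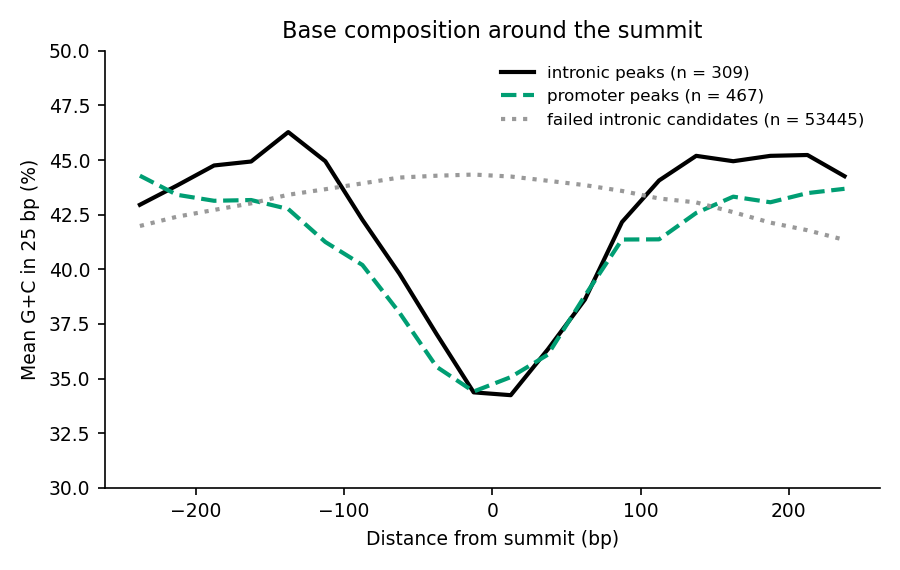
Mean G+C content (y, %, axis from 30 to 50) in 25 bp bins by distance from the summit (x, bp) of 309 intronic peaks, 467 promoter peaks and 53445 failed intronic candidates. Intronic and promoter peaks share a trough at the summit, 34.2% at its lowest in the intronic peaks, where the failed candidates stand near 44.3%.

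The word ACAGTGG, on either strand and no more than 100 bp from the summit, was in 53 members (17.2%, interval 13.4 to 21.8). It was in 11.99% of promoter peaks, 14.3% of intergenic peaks, 2.89% of failed intronic candidates, 2.69% of failed candidates whose G+C lay within the members' quartiles, and 2.33% of windows of the same length at intron points. Its share was 26% in the 100 strongest members, 14% in the next 100 and 11.9% in the last 109. The core CAGTG, which the longer word contains, was in 60.8% of members, 48.6% of promoter peaks, 53.3% of intergenic peaks and 32.0% of failed candidates. Another word with that core, CAGTGTA, was in 12.3%, 5.78%, 15.2% and 1.92% in the same order. These words came from an earlier search of the same peaks, so their presence is a description. Among all 8192 words of 7 bases, counted with their reverse complements, 8 were in at least 8% of members and at least 3 times as common as in failed candidates of like G+C. Of the 8, 7 contained CAGTG or CACTG and the other, ACTGTGC, overlaps CACAGTG on the opposite strand.

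Longer words with this core had a direction relative to the summit, while the core itself did not. A word faces the summit here when its 5′ to 3′ reading runs toward it. Within 150 bp, 218 copies of CAGTG in members faced the summit and 188 faced away (53.7% facing, interval 48.8 to 58.5). By contrast, 92 copies of ACAGTGG in members faced the summit and 10 faced away (90.2% facing, interval 82.9 to 94.6). In promoter peaks 80 faced it and 15 did not (84.2%), and in intergenic peaks 20 did and 2 did not (90.9%). In failed intronic candidates 49.5% of the copies faced it, and in those of like G+C 56.5% (52.7 to 60.1). Copies lay a median of 79 bp from the summit, and the plus-strand copies left of it and minus-strand copies right of it were each commonest at 50 to 100 bp. This direction was present on each group of arms, with 26 facing and 0 away on 2L and 3L and 66 and 10 on the others, and in each replicate's own list, with 41 and 2 in replicate 1 and 66 and 6 in replicate 2. It did not follow the host gene, since 49 copies lay on its coding strand and 47 on the other.

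TACACTG, the reverse complement of CAGTGTA, faced the summit in 49 of 53 copies (92.5%, interval 82.1 to 97.0), against 49.5% in failed intronic candidates. Both words as they read toward the summit thus contain ACA, then G or C, then TG. Taking the shorter forms ACAGTG and ACACTG together, 215 copies faced the summit and 54 faced away (79.9%, 74.7 to 84.3). The facing share was 70.0% in promoter peaks (64.8 to 74.6), 78.4% in intergenic peaks (67.7 to 86.2) and 49.5% in failed candidates. At least one facing copy was present in 144 members (46.6%, 41.1 to 52.2), 37.0% of promoter peaks, 39.0% of intergenic peaks and 11.5% of failed intronic candidates. Facing copies stood on both sides of the summit in 52 members (16.8%), 8.78% of promoter peaks, 8.57% of intergenic peaks and 0.610% of failed candidates. Directly 5′ of ACAGTGG the bases were uneven as well: G stood 2 bases before the word in 61 of the 102 copies (59.8%). Words without this core were uneven in direction too, with less certainty. Within 150 bp AAAAAAA, counted with overlapping copies, faced the summit 249 times and away 113 times in members (68.8%, 63.8 to 73.3). In failed candidates 48.3% faced it, and in replicate 1's own intronic peaks 55.8% (45.8 to 65.4). GAGAG faced it in 56.6% of copies in members (51.3 to 61.8) and 50.9% in failed candidates. The 362 copies of AAAAAAA lay in 111 members and the 341 of GAGAG in 136, and overlapping copies share a direction. The intervals for these words count each copy as separate and are too narrow. The directions were noticed in these data, so they are a description of these peaks.

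**Figure D5:**
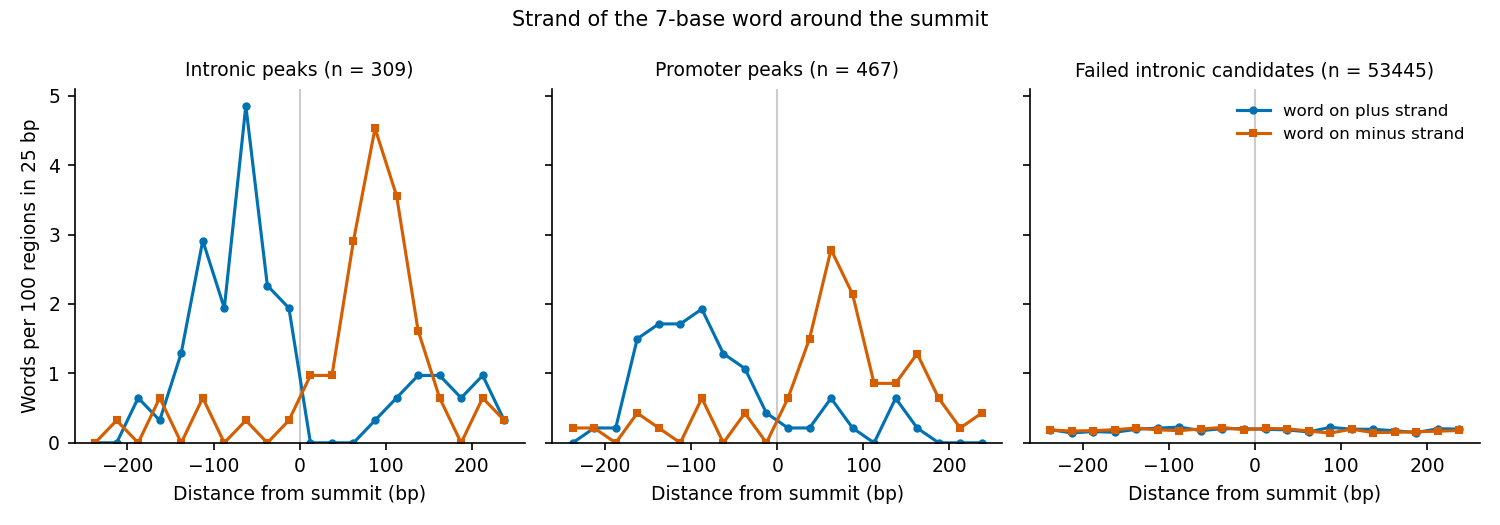
Copies of the 7-base word on the plus strand (circles) and minus strand (squares) per 100 regions and 25 bp bin (y) by distance from the summit (x, bp) in 309 intronic peaks, 467 promoter peaks and 53445 failed intronic candidates. In peaks of both kinds the plus-strand copies lie left of the summit and the minus-strand copies right of it, up to 4.85 per 100 intronic peaks in a bin, while both strands stay flat at about 0.2 in the failed candidates.

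Other elements, most of them known from promoters, were also counted. The DNA replication-related element TATCGATA, common at promoters of housekeeping genes, was in 0 members within 100 bp, which allows up to 0.971% by the same limit of 3 counts, against 4.71% of promoter peaks and 0.264% of failed intronic candidates. GGTCACACT, the M1BP word of core promoters, was in 1 member (0.324%, interval 0.057 to 1.81) and 1.499% of promoter peaks, and the ZIPIC word AGGGCTG in 2 (0.647%) and 3.21%. The BEAF-32 word CGATA was in 23.9% of members, 29.98% of promoter peaks, 18.5% of failed candidates and 20.3% of those of like G+C, which the members' interval (19.5 to 29.0) held. GAGAGAG, the word of GAGA factor, was in 0.971% of members within 50 bp of the summit, near the 1.62% of failed candidates and 1.27% of those of like G+C. Within 250 bp it was in 20.1% of members, 20.1% of promoter peaks and 7.06% of failed candidates.

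Within 100 bp of the summit some words were rarer in members than in other introns. GCCAT, the core of the PHO site, was in 25.6% of members and 41.1% of failed candidates (36.2% at like G+C), and the CA repeat CACACACA in 2.27% and 6.71% (5.22% at like G+C). Within 250 bp the CA repeat was not rarer, at 16.8% of members (interval 13.1 to 21.4), 14.8% of failed candidates and 12.6% of those of like G+C. GCCAT was still rarer there, at 58.6%, 71.3% and 67.3%. Within 100 bp TATAAA was in 29.8% of members (interval 24.9 to 35.1), 39.2% of promoter peaks, 16.6% of failed candidates and 25.4% of those of like G+C. The A tract AAAAAAA was in 26.9% (22.2 to 32.1), 18.0%, 16.5% and 24.95% in the same order. In both cases the members' interval held the share of the failed candidates of like G+C and not that of the promoter peaks. For the Zelda word CAGGTAG (0.971%), the Su(Hw) word TGCATAC (4.53%), the nuclear receptor half-site AGGTCA (3.24%), the E-boxes CAGCTG (7.12%) and CACGTG (3.24%) and the homeodomain core TAATTA (12.9%), the members' intervals held the share of the failed candidates of like G+C.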

How the data were processed

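Chromatin immunoprecipitation with sequencing was analysed through 8 peak lists that the authors deposited for 2 biological replicates: a ranked and a thresholded list per replicate, and 2 of each for both replicates. Per the labels' protocols, chromatin was sonicated to fragments of 200 to 800 bp. Per the file headers, lists are on the dm6 assembly and were made from alignments and a control; the aligner is not given in the sources used here, and neither is the peak caller. The deposited signal value of a peak has an unstated scale, and read depth is unknown. The ranked lists give −log10 of the global IDR as deposited, and all lists hold the deposited summit offset, which is another number of the file and places the summit. The thresholded lists are also made from 1 further file, named in the deposited records, whose role is not stated.

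Peaks were placed by summit with the Ensembl annotation BDGP6.54 (release 115) on the Release 6 genome of RefSeq, whose arm lengths matched. Overlap meant at least 1 bp. Words on either strand were sought up to 100 bp from the summit, and directions within 150 bp. Intervals are Wilson intervals at 95%. The count of words and of their directions was tested on a simulated sequence with planted words. The overlap and median steps were tested on small made-up examples, and the other counting steps had no such test. No test was run, since there was 1 group and regions are not replicates. The host genes named were those of the 20 strongest members, all with 3 or more members, up to 4 per gene list by signal, and the members beside the TSS limit; 1 of the 20 is not reported here. Members beside the IDR limit were named in addition. The sequences are those of the 6 strongest members, and of up to 12 strongest members with ACAGTGG, that lie outside arm 2R. Members, the 12 gene lists and the 18 words were chosen with earlier results of these data known. The bands of TSS distance, the search of all 7-base words and the word directions were added after seeing the data. The tools were matplotlib 3.10.9, scipy 1.17.1, pandas 2.3.3 and numpy 2.4.6 under Python 3.11.15.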

Additional observations from a re-analysis of the deposited data

Results flagged for a closer look

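Outside the lists described above, 13 intronic candidates (of 42 candidates in all) were past the same IDR threshold in the pooled ranked list but were not in the thresholded list, a signal in data that no comparison used. The strongest, in an intron of ush, which encodes a cofactor of GATA factors, had a signal value of 559.9, above all 309 members, with its summit 1416 bp from a TSS. The next lay in Lk6, a kinase gene (386.9, with ACAGTGG within 100 bp), and in trx, the founding Trithorax gene (216.7). Further ones were in tara (140.6) and nmo (123.0), and the rest, in ush, crp, Kdm2, jumu and CG12054, were at 90.2 or less. What kept them out is not stated in the sources used here and was not tested.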

How the results depend on the processing

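Of 89 alternative values for 11 results, 52 stayed within the main value's interval (for the number of peaks, within 1.5 times). For those that did not, the cause was not tested beyond how each alternative is built. In the conservative list 0.407% of intronic candidates were thresholded and 36.2% of intronic peaks were in both replicate lists. With each replicate's own list alone (leaving the other out), the number of intronic peaks was 125 to 158, their share of peaks 29.5 to 29.8%, the thresholded share of candidates 0.316 to 0.392%, the share in both lists 46.8 to 59.2%, the signal ratio to promoter peaks 0.916 to 0.949 (0.900 in the pooled list), the ACAGTGG share 18.4 to 24.1%, the TSS distance 1530 to 1854 bp, the first-intron share 78.4 to 79.1% and the facing share 91.7 to 95.3%. At an IDR of 0.001 the values were 75 peaks, 27.9% of peaks, 0.1395% of candidates, 84.0% in both lists, a signal ratio of 0.937, 30.7% with ACAGTGG, 1528 bp and 85.3% in a first intron. With a TSS limit of 250 bp, 39.2% of peaks were intronic, 0.646% of candidates were thresholded and the distance was 1698 bp; with 1000 bp these were 25.4%, 0.475% and 3586 bp. The first-intron share was 57.2% in the longest transcript alone. ACAGTGG was in 5.502% of members within 50 bp and 27.8% within 250 bp, and median G+C was 33.7% and 41.9%. The facing share, an alternative chosen after seeing the data, was 95.5% within 100 bp and 82.0% within 250 bp. Leaving out the weaker peak of each overlapping pair, also chosen after seeing the data, gave 306 peaks and moved no other value out of its interval. No paired analysis was possible because there was 1 group. Without read counts, signal precision per peak is unknown, so an absent replicate peak near the threshold cannot be told from a weak one.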
